A study of Mus musculus with 4 samples.

Results

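The cluster is a row of related Trim genes on mouse chromosome 7, of which 6 are described here: Trim6, Trim34a, Trim12a, Trim12c, Trim30a and Trim30d. They were chosen by name from the 35522 genes listed in the deposited tables, because earlier results of the same comparison had shown some of them far apart between the genotypes. Their own differences between genotypes are therefore given as a description, with no test. The livers came from mice of strain C57BL/6 given diethylnitrosamine (DEN), a carcinogen that liver enzymes turn into a DNA-alkylating agent, and were taken 1 day later. Livers labelled Dph1 KO (n = 2) were set against livers labelled Control (n = 2), and all 4 had received DEN. The Dph1 protein works in the first step of making diphthamide, which is a histidine of the translation factor eEF2 after modification. The labels give no age and no promoter or cell type for the deletion. They also do not say whether each library is from its own animal, so p-values cover only how far these samples lie apart, and that can be technical.

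TRIM proteins carry a RING domain that attaches ubiquitin, a B-box and a coiled coil, and most of those encoded in this cluster end in a B30.2/SPRY domain that binds the target. The group is known for defence against viruses. Primate TRIM5 binds the capsid of incoming retroviruses, and many genes of the group are switched on by interferon. The copy number of the group differs widely between mammals, and the mouse holds several close copies where humans have single genes.

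The 6 genes lie within 289 kb of GRCm38 chromosome 7, between 104218795 and 104507849. Trim6 (gene ID 94088, 104218795 to 104235152) and Trim34a (94094, 104244457 to 104262239) are on the plus strand. Trim12a (76681, 104299897 to 104315495), Trim12c (319236, 104338754 to 104353358), Trim30a (20128, 104409025 to 104465193) and Trim30d (209387, 104470014 to 104507849) are on the minus strand. Among them lie 4 more Trim genes, Trim5, Trim34b, Trim30b and Trim30c.

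The promoters are shown because the group is known as interferon-inducible and because some copies that differed in level have nearly the same promoter. RefSeq promoter windows of GRCm38.p6, from 250 bases before to 50 after each gene's start, were found for all 6 genes and searched on both strands for GAAA, any 2 bases and GAAA again, the core of the interferon-stimulated response element. The motif was in the windows of 5 of the 6, in each case on the opposite strand (so that it reads TTTC, any 2 bases and TTTC), and not in that of Trim6. Of all 27025 genes with a window 3.99% held it in at least 1 window (3.44% of all 32851 windows), and of 35 listed interferon-stimulated genes with a window 19 did. The 60-base stretches below run 5′ to 3′ in the direction of the gene, with the motif in capitals: Trim12a at chr7:104315451-104315510 (minus strand), Trim12c at chr7:104353344-104353403 (minus strand), Trim30a at chr7:104465195-104465254 (minus strand), Trim30d at chr7:104507856-104507915 (minus strand), Trim34a at chr7:104244442-104244501 (plus strand).
Trim12a: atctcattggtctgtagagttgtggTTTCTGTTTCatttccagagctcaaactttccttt
Trim12c: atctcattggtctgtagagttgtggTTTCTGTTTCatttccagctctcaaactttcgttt
Trim30a: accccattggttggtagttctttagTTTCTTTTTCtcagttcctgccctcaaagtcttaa
Trim30d: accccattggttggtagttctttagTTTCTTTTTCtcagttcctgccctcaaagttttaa
Trim34a: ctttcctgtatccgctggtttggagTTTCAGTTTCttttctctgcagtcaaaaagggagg
The 300-base Trim6 window, at chr7:104218545-104218844 on the plus strand, is given in full because it was the 1 member window with no match.
Trim6: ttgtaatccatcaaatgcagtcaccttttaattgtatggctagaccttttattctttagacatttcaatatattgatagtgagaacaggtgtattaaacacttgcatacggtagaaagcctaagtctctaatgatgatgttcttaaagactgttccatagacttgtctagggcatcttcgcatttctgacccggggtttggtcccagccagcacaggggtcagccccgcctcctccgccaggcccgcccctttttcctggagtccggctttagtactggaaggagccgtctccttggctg

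Trim12a and Trim12c, which differed between the genotypes in opposite directions, had nearly the same promoter, with 94.6% identity over 261 aligned bases. The Trim5 window matched that of Trim12a at 100% over 241 bases and that of Trim12c at 94.2% over 278 bases. Trim30a and Trim30d were alike to 93.9% over 294 bases. The windows of Trim34a and Trim34b gave no alignment, and that of Trim34b held no match to the motif. A second RefSeq start of Trim30a also held the motif. The place of the match ranged from 41 bases before the start, in Trim30d, to 11 bases after it, in Trim12a and Trim34a. A match is a description of the letters and does not show that the site is used.

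The copies are also alike in their transcripts, which bears on how reads are assigned. The longest coding transcripts of Trim12a and Trim12c (GENCODE M21) matched at 96.0% over 967 bases, and those of Trim34a and Trim34b at 98.7% over 1827 bases. That of Trim5 matched Trim12a at 97.1% over 928 bases and Trim12c at 94.3% over 3710 bases. Of all 50-base stretches of the Trim34a transcript, 41.3% occurred exactly in another Trim gene of the row, against 23.6% for Trim12a, 26.5% for Trim12c, 6.07% for Trim30a and 8.29% for Trim30d. Trim6 shared none. In the deposited tables every Trim6 read was unique, as were 17.7% to 22.1% of Trim12c reads and 72.9% to 75.4% of Trim34a reads. Values for Trim12c and Trim34a thus depend on how the authors placed shared reads, a step that no label or header describes. The unique share did not follow the sharing within the row, since 96.1% and 92.3% of Trim12a reads in Control were unique. Where else the Trim12c reads matched was not tested.

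The libraries held 20410978 and 21137358 reads in genes for Dph1 KO and 19474596 and 20355790 for Control. Dph1 itself had 17.8 and 31.5 CPM in Dph1 KO, against 70.3 and 68.3 CPM in Control (CPM are counts scaled to a common library size with TMM factors), with a log2 fold change of -1.49 (SE 0.26; edgeR adjusted p = 0.0107). Over 13303 genes tested by edgeR's quasi-likelihood test, 646 rose and 994 fell at a Benjamini-Hochberg adjusted p under 0.05, which is 12.3% called, 4.86% as rises and 7.47% as falls. Scaled by library total alone, 2634 rose and 789 fell and the median log2 fold change was 0.30, against 0.04 with TMM. Hepatocyte markers summed to 58896 to 59056 CPM in Dph1 KO and 70723 to 88473 CPM in Control, as the liver label asks. Of the 6 markers, all tested, 2 were called (Apoa1 and Cyp3a11), 1 as a rise and 1 as a fall.

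Trim6 was far higher in the Dph1 KO livers. In human cells its product makes free ubiquitin chains that help start the interferon response. It had 246 and 137 reads in Dph1 KO, against 16 and 9 in Control. In CPM it averaged 8.35 ± 2.94 in Dph1 KO and 0.69 ± 0.26 in Control (SD, n = 2 each). Each Dph1 KO library stood several-fold above each Control library, although the Dph1 KO libraries also differed from each other. The log2 fold change of Dph1 KO over Control was 3.59 (SE 0.39), and it lay between 3.20 and 4.04 with any 1 library left out. Reads in exons numbered 162 and 97 in Dph1 KO and 11 and 9 in Control, and those across exon junctions 20 and 13 in Dph1 KO and 2 in each Control library. Intron reads were also more numerous, at 84 and 40 in Dph1 KO and 5 and 0 in Control.

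Trim12a was nearly lost from the Dph1 KO livers. It is a mouse relative of primate TRIM5. Its reads numbered 4 and 2 in Dph1 KO and 76 and 78 in Control. In CPM this is 0.13 ± 0.06 in Dph1 KO and 4.24 ± 0.14 in Control (SD, n = 2 each). The Control libraries held 32.1 times the Dph1 KO level (95% Clopper-Pearson interval 14.4 to 88.8, counting error only). The log2 fold change was -4.94 (SE 0.46), and -5.41 to -4.58 with 1 library left out. Of these reads, 3 and 2 in Dph1 KO and 73 and 72 in Control were unique, and unique reads alone gave -5.11. Unique reads across exon junctions numbered 0 and 1 in Dph1 KO and 17 and 19 in Control.

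Trim12c, another mouse gene related to TRIM5, stood higher in Dph1 KO. It had 222 and 174 reads in Dph1 KO, against 83 and 79 in Control. The means were 8.68 ± 1.03 CPM in Dph1 KO and 4.45 ± 0.09 CPM in Control (SD, n = 2 each), and the libraries did not overlap. The log2 fold change was 0.96 (SE 0.24). Its unique reads alone, 49 and 38 in Dph1 KO and 16 and 14 in Control, gave 1.20 (SE 0.37).

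Set side by side, Trim12a and Trim12c had sums that overlapped between the genotypes. This pair and the following pairs were picked after their values were seen. Together they had 9.58 and 8.05 CPM in Dph1 KO and 8.65 and 8.73 CPM in Control. Trim12a supplied 1.77% and 1.14% of the joint reads in Dph1 KO, against 47.8% and 49.7% in Control. The sum of unique reads was lower, at 52 and 40 in Dph1 KO and 89 and 86 in Control, and most Trim12c reads are not unique. Trim5, which is close to both in sequence, is not in these sums.

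Trim34a was lower in Dph1 KO. Human TRIM34 is known to restrict some retroviruses together with TRIM5. Trim34a had 42 and 23 reads in Dph1 KO, against 65 and 59 in Control. Its mean was 1.42 ± 0.51 CPM in Dph1 KO and 3.41 ± 0.18 CPM in Control (SD, n = 2 each), with a log2 fold change of -1.26 (SE 0.35). The close copy Trim34b showed the reverse, with 27 and 22 reads in Dph1 KO, of which 16 and 11 were unique, and 0 in each Control library. With the Control group as a whole set at the floor of 3 counts, Trim34b was at least 13.1-fold higher. This bound and the shares that follow use all reads, with shared ones as the authors placed them. The Control counts of 0 allow Trim34b up to 4.62% and 5.08% of the joint reads of Trim34a and Trim34b, where it supplied 39.1% and 48.9% in Dph1 KO. The predicted gene Gm17788, which spans Trim34b on the opposite strand and overlaps Trim12c, had at most 3 reads in any library.

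**Figure D1:**
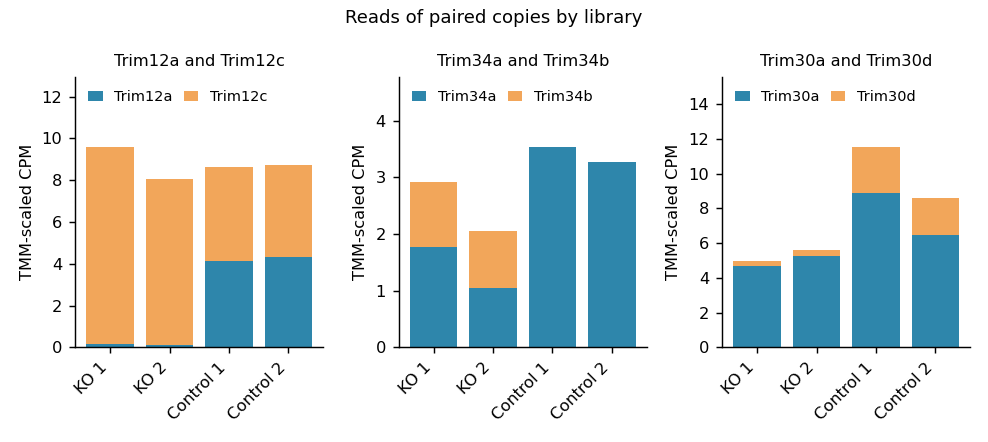
Stacked bars give the TMM-scaled CPM of 3 pairs of copies in each library, Dph1 KO replicates 1 and 2 and then Control replicates 1 and 2. Trim12a is almost absent from the Dph1 KO bars while the height of the Trim12a and Trim12c bars stays between 8.05 and 9.58 CPM, and Trim34b appears in the Dph1 KO bars alone.

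Trim30d was lower and Trim30a showed a smaller difference that depended on the class of reads. Trim30d had 7 and 8 reads in Dph1 KO, against 49 and 39 in Control, and the groups were far apart. Its means were 0.33 ± 0.05 CPM in Dph1 KO and 2.42 ± 0.35 CPM in Control (SD, n = 2 each; log2 fold change -2.85, SE 0.42). Trim30a, whose product in mouse macrophages is known to curb NF-kB signalling by removing TAB2 and TAB3, had 110 and 115 reads in Dph1 KO and 163 and 116 in Control. After scaling these were 4.66 and 5.26 CPM in Dph1 KO and 8.87 and 6.45 CPM in Control, with a log2 fold change of -0.63 (SE 0.26). Without Control replicate 1 the fold change was -0.39, and with library totals -0.38. Its intron reads numbered 48 and 65 in Dph1 KO and 114 and 71 in Control. Exon reads of Trim30a were 62 and 50 in Dph1 KO and 49 and 45 in Control, and gave a log2 fold change of -0.03 (SE 0.31). Introns held 43.6% and 56.5% of Trim30a reads in Dph1 KO and 69.9% and 61.2% in Control. Trim30d supplied 5.98% and 6.50% of the joint reads of Trim30a and Trim30d in Dph1 KO, against 23.1% and 25.2% in Control.

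**Figure D2:**
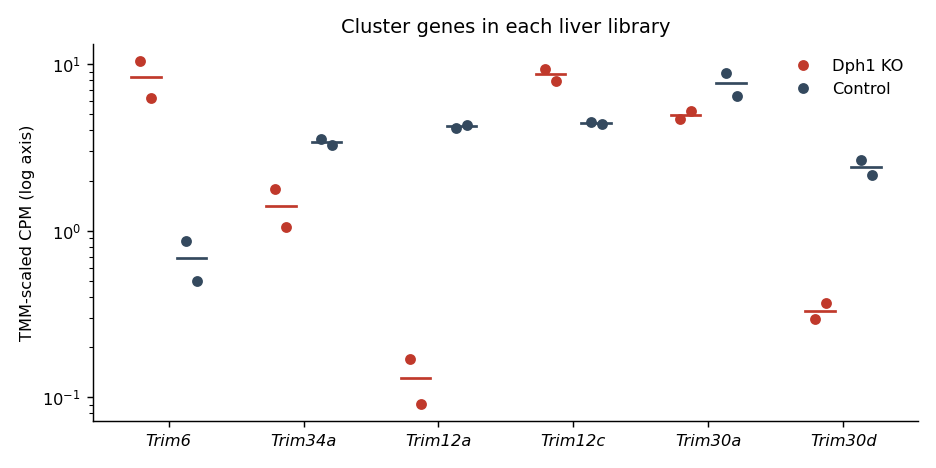
Points are the TMM-scaled CPM of each library on a log axis, with a bar at the mean of each genotype, Dph1 KO left and Control right, for the 6 genes in order along the chromosome. Trim6 and Trim12c are higher in Dph1 KO, and Trim34a, Trim12a, Trim30a and Trim30d are lower.

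In all 6 genes the libraries of the genotypes did not overlap, as in 67.4% of all tested genes. All 6 passed the filter on low counts, Trim12a and Trim30d through their Control reads alone and Trim6 through its Dph1 KO reads. Of the 6, 5 were past the adjusted threshold, where 12.3% of tested genes were called. The members were chosen from this contrast, so these counts carry no weight of their own. Of the 6 genes together, reads summed to 26.7 and 21.0 CPM in Dph1 KO and 24.6 and 21.1 CPM in Control, so the summed level overlapped between the genotypes. Across 12490 genes with a GC content, the log2 fold change went with lower GC (Spearman's rho -0.62, a description over genes of the same 4 libraries). The members hold 39.1% to 44.7% GC, against a median of 49.8% over tested genes. With the GC and length trend removed the log2 fold changes were 3.26 for Trim6, 0.53 for Trim12c, -1.05 for Trim30a, -1.54 for Trim34a, -3.29 for Trim30d and -5.43 for Trim12a.

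**Figure D3:**
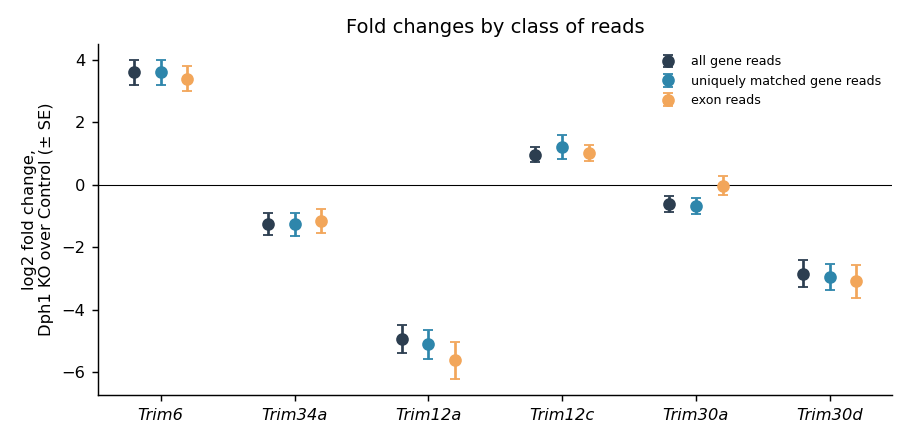
Points are log2 fold changes of Dph1 KO over Control with their SE, from all gene reads, uniquely matched gene reads and exon reads (edgeR fits). The 3 classes keep the order of the genes, and Trim30a lies near 0 with exon reads alone.

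The order of the members by transcript level was not the same in the genotypes. The authors' TPM, which divide exon reads by exon length, were used to set genes side by side. In Dph1 KO the order was Trim12c (4.42 ± 1.11 TPM), Trim6 (3.0 ± 1.4), Trim30a (1.30 ± 0.33), Trim34a (0.95 ± 0.55), Trim30d (0.10 ± 0.04) and Trim12a (0.06 ± 0.01). In Control it was Trim12a (2.50 ± 0.20 TPM), Trim12c (1.70 ± 0.13), Trim34a (1.62 ± 0.10), Trim30a (1.03 ± 0.11), Trim30d (0.72 ± 0.18) and Trim6 (0.22 ± 0.04; SD, n = 2 each). Trim12c and Trim6 overlapped in Dph1 KO, as did Trim30a and Trim34a, and Trim12c and Trim34a overlapped in Control. The lowest ranks rest on few reads. The rank of Trim12c depends on how the authors placed shared reads. Of its exon reads, 46 of 208 and 38 of 168 in Dph1 KO were unique. In Control these were 14 of 78 and 14 of 75. All 162 and 97 exon reads of Trim6 in Dph1 KO were unique.

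Of the 4 other Trim genes of the row, Trim30b and Trim30c were too low to test. Trim30b had 2 and 1 reads in Dph1 KO and 4 and 2 in Control, and Trim30c had 3 and 8 in Dph1 KO and 1 and 0 in Control. Trim5 had 2.12 and 2.15 CPM in Dph1 KO and 1.85 and 2.00 CPM in Control. It was not called (log2 fold change 0.15, SE 0.32, edgeR adjusted p = 0.770). Of Trim5 reads, 21.3% to 38.2% were unique and 76.5% to 92.0% fell in introns. Its log2 fold change was -0.16 (SE 0.47) with unique reads and -0.28 with the GC and length trend removed. Trim34b was the 1 gene called of the 2 tested, where 12.3% of all tested genes were called, and it passed the filter through its Dph1 KO reads alone.

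Away from the row, 191 of 224 listed non-Trim genes starting within 2 Mb on either side had no read in any library, and 158 of the 224 were olfactory receptor genes by name. Of the 22 that were tested, 3 fell and 0 rose, 13.6% against 12.3% of all tested genes, and their median log2 fold change was -0.41, against 0.04 over all genes. Trim genes outside the row were left out of this list, among them Trim68, which starts within the same 2 Mb and rose. Gvin1, an interferon-inducible GTPase gene at 106156535 to 106215340, had 0 reads in each Dph1 KO library and 5.0 and 4.89 CPM in Control. With 3 counts assumed for the Dph1 KO group, and shared reads as the authors placed them, it was at least 75.0-fold lower. It passed the filter through Control alone. Only 3.33% of its reads were unique, so this bound depends on that placing, and the fit on unique reads gave Gvin1 no value. The caveolar adaptor gene Prkcdbp fell, with 0.90 ± 0.61 CPM in Dph1 KO and 2.78 ± 0.0049 CPM in Control (SD, n = 2 each; log2 fold change -1.64, edgeR adjusted p = 0.0424, and 0.081 after GC correction). The cadherin gene Dchs1 fell by 0.91 on the log2 scale (edgeR adjusted p = 0.0271). DESeq2 called 6 of these neighbours and 2005 of all genes, where edgeR called 1640 of all genes. The number of neighbours called also changed when Control replicate 2 or either Dph1 KO library was left out, as it did over all genes.

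**Figure D4:**
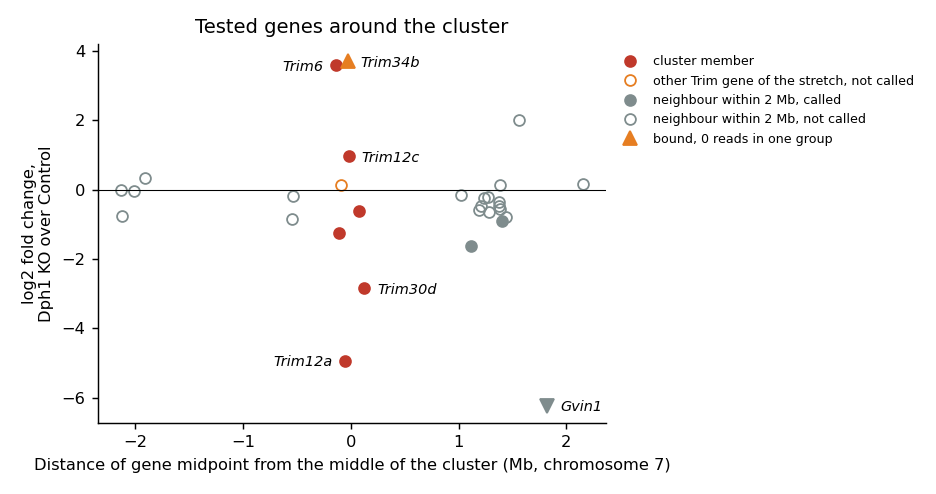
Each point is a tested gene, placed by the distance of its midpoint from the middle of the cluster in Mb, with its log2 fold change of Dph1 KO over Control. Trim genes outside the row, among them Trim68, are not shown. Cluster members span from -4.94 to 3.59, and 19 of the 22 neighbours were not called. Triangles are bounds for Trim34b and Gvin1, which had 0 reads in one genotype, with shared reads as the authors placed them.

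Of 28 tested Trim genes outside the row, 3 rose and 2 fell, 17.9% against 12.3% of all tested genes, with a median log2 fold change of 0.05. Trim68 lies on the same chromosome at 102677580 to 102687326 and starts within 2 Mb of the row. It rose, with 8.14 and 7.04 CPM in Dph1 KO and 2.94 and 3.17 CPM in Control (log2 fold change 1.31, SE 0.26; edgeR adjusted p = 0.0158). Trim24, a nuclear receptor cofactor gene, and Trim2 also rose, by 0.85 and 0.95 on the log2 scale (edgeR adjusted p = 0.0322 and 0.0490). The co-repressor gene Trim28 had a log2 fold change of -0.80 (edgeR adjusted p = 0.0429) and Trim47 of -0.92 (adjusted p = 0.0440), and after GC correction these were -0.21 and -0.15, with neither called. Trim2 also lost its call under that correction (edgeR adjusted p = 0.158). The number of calls in this list changed whichever library was dropped, as did the number over all genes.

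Of 46 tested interferon-stimulated genes, 4 rose and 1 fell, 10.9% against 12.3% of all tested genes, with a median log2 fold change of 0.31, against 0.04 over all genes. Stat2, which encodes a transcription factor of the interferon response, rose to 65.5 ± 4.90 CPM in Dph1 KO, against 38.8 ± 7.05 CPM in Control (SD, n = 2 each; log2 fold change 0.76, edgeR adjusted p = 0.0445). The guanylate-binding protein gene Gbp7 (log2 fold change 1.10), Ifi44 (1.99) and the RNA-sensing kinase gene Eif2ak2 (0.79) rose, and the oligoadenylate synthetase-like gene Oasl1 fell by 0.73 on the log2 scale (edgeR adjusted p = 0.0297, 0.0396, 0.0464 and 0.0398). After GC correction Stat2 was still called (edgeR adjusted p = 0.0224), and Gbp7, Ifi44, Oasl1 and Eif2ak2 were not (0.112, 0.075, 0.263 and 0.135). The list was sensitive to scaling, with 15 rises and 1 fall under library totals, where 2634 rose and 789 fell over all genes. The number of its calls also changed when either Control library or Dph1 KO replicate 2 was dropped, as it did over all genes. Of 11 tested interferon receptor and signalling genes 0 were called by edgeR, where 12.3% of all tested genes were called. With no adjustment, 0 were higher and 1 was lower at p under 0.05. DESeq2 called 1 of them. Dropping Dph1 KO replicate 2 gave edgeR calls among them, and it also gave more calls over all genes. Irf3 and Jak1 were the most abundant. Irf3 had 64.5 and 93.4 CPM in Dph1 KO and 121 and 135 CPM in Control (log2 fold change -0.69, edgeR adjusted p = 0.0729), and Jak1 had a log2 fold change of 0.47 (adjusted p = 0.147).

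Of 24 tested genes for partners of TRIM5 and TRIM30 proteins in kinase and NF-kB signalling, 0 rose and 2 fell, 8.33% against 12.3% of all tested genes. Tab1, which encodes an activator of the kinase TAK1, had 9.28 and 8.87 CPM in Dph1 KO and 16.2 and 14.5 CPM in Control (log2 fold change -0.76, edgeR adjusted p = 0.0407). The NF-kB subunit gene Rela fell by 0.80 on the log2 scale (edgeR adjusted p = 0.0446). After GC correction neither was called. The number of calls among these partners changed whichever library was dropped, as it did over all genes. Of the named genes called in these lists, Trim68 was called in 3 of the 4 fits with a library left out and the others in 1 or 2, leaving aside Gvin1 and Trim34b, which had 0 reads in one genotype.

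Markers of immune cells, which are known to express Trim30a, were compared as levels. In bulk liver, fewer cells of a type and less RNA per cell cannot be told apart. The 7 Kupffer cell and macrophage markers in the tables, of 8 listed, summed to 172 and 290 CPM in Dph1 KO and 283 and 296 CPM in Control, and 1 of the 7 tested (Cd68) fell, where 7.47% of all tested genes fell. The 4 B cell markers summed to 3.81 and 3.25 CPM in Dph1 KO and 5.66 and 6.56 CPM in Control, with 1 of 3 tested (Cd79a) falling. The 3 plasmacytoid dendritic cell markers, which include the interferon-stimulated gene Bst2, summed to 142 and 192 CPM in Dph1 KO and 112 and 137 CPM in Control, with 0 of 2 tested called. The 5 neutrophil markers summed to 0.89 and 1.92 CPM in Dph1 KO and 2.23 and 1.11 CPM in Control, with 0 of 2 tested called. The 6 T and NK cell markers summed to 1.14 and 2.29 CPM in Dph1 KO and 1.25 and 1.67 CPM in Control, with 0 of 1 tested called and Trbc2 at 0 in all 4 libraries. The 5 sinusoidal endothelial markers summed to 135 and 137 CPM in Dph1 KO and 149 and 138 CPM in Control, with 0 of 5 called. Over all tested genes 12.3% were called, so marker counts this small carry little weight. The part of these cells in the Trim30a and Trim30d values was not tested.

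The genes most like Trim6 and Trim12a were found by the root mean square difference of log2 CPM, centred over the 4 libraries, among 12119 genes of at least 1 CPM on average. Nearest to Trim6 were Impg2 (0.51), Hist1h2bk (0.55), none of whose reads were unique, and Lrp2bp (0.57). Impg2 stood at 8.48 and 4.99 CPM in Dph1 KO and 1.47 and 0.89 CPM in Control. Nearest to Trim12a were Glud-ps, a pseudogene on chromosome 7 (0.35), LOC100416360 on chromosome 17 (0.35) and 1700009P17Rik on chromosome 1 (0.36). Glud-ps had 0.04 and 0 CPM in Dph1 KO, against 3.54 and 3.61 CPM in Control. With 4 libraries, any gene that separates the genotypes by a similar amount lies close.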

How the data were processed

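Frozen livers were extracted with Trizol and made into stranded mRNA libraries, per the labels' protocols. The submitters' processing notes name GRCm38 and mm10. Which aligner and counter were used, and whether strand was used in counting, is stated neither in the labels nor in the headers. Per the file headers, the authors deposited whole-number read counts per gene (total and unique, over exons, junctions and introns) and TPM values. Deposited RPKM values and fractions of reads were not used. Libraries within a genotype were further apart than counting noise allows (chi-square per degree of freedom 77.3 in Dph1 KO and 29.7 in Control), so none was treated as a repeat deposit of another. This does not show that they come from separate animals.

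Total gene reads were filtered by filterByExpr, scaled by TMM and tested by edgeR 4.0.16 (R 4.3.3) with genotype as the only term, with Benjamini-Hochberg adjustment across 13303 genes. The SE was taken as the size of the log2 fold change over the root of F. The smallest two-sided exact permutation p for 2 against 2 libraries is 0.333, so any call depends on the spread that edgeR pools over genes. Alternatives used other scalings, filters and read classes, DESeq2 1.42.0, limma 3.58.1 (voom, and log2(TPM + 1)), a GC and length trend (mgcv 1.9.3, basis size 6; GC found for 99.6% of protein-coding genes) and each library left out, where the lone library of a genotype is assumed to vary like those of the other. Intervals (95%) and floors of 3 counts cover counting error only, and not how shared reads were placed. Transcripts and promoters were aligned with BLAST 2.17.0. The test was checked on simulated data with 1 common dispersion and no GC trend. There it recovered 51% of 2-fold and 98% of 4-fold changes, in genes of at least 1 CPM, and 13 of 162 calls were false. Smaller changes in these libraries can thus be missed. The planned protein comparison was not made here.

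Members and lists were chosen with earlier results of these data known. Named genes were the members, Dph1, called neighbours, tested Trim genes of the row, up to 6 called genes of each other list by lowest p (or the 2 most abundant), and the 3 genes most like Trim6 and Trim12a.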

Additional observations from a re-analysis of the deposited data

How the results depend on the processing

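No paired analysis was possible because the labels give the libraries no replicate numbers shared between the genotypes. Trim6 and Trim12c stayed higher and Trim12a, Trim30d and Trim34a lower in Dph1 KO under all 13 alternatives, with log2 fold changes of 1.68 to 4.04, 0.53 to 1.23, -5.62 to -1.73, -3.29 to -0.64 and -1.67 to -0.45. The smallest values of Trim6, Trim12a, Trim30d and Trim34a came from log2(TPM + 1), which shrinks low genes, and that of Trim12c from the GC and length trend. Trim30a lay between -1.05 and 0.17, above 0 with log2(TPM + 1).

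Counts of calls were less stable. Over all genes, library totals gave 3423, log2(TPM + 1) gave 3, and leaving out a library gave 528 to 5405, against 1640. For Trim genes elsewhere these were 8, 0 and 0 to 11, for interferon-stimulated genes 16, 0 and 0 to 18, and for signalling partners 7, 0 and 0 to 11. Interferon-stimulated genes also had 8 calls with exon reads, 8 with no filter and 3 with limma-voom. Signalling partners had 0 with the GC and length trend. Over all genes there were 1888 calls with exon reads, 2233 with no filter and 1436 with limma-voom. The GC and length trend gave 1235 over all genes and DESeq2 gave 2005. Neighbours had 6 calls with DESeq2, 7 with no filter, 0 with log2(TPM + 1) and 2 to 9 with a library left out. Interferon receptor and signalling genes had 1 with DESeq2, 2 with library totals and 0 to 6 with a library left out. Trim34b was not called with log2(TPM + 1) (0 of the row called), and DESeq2 gave it no adjusted p. Trim12a and Trim30d in Dph1 KO rest on under 10 reads a library, which limits how low a level can be told apart.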
